A study of Mus musculus with 2 samples.

Results

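Immediate early genes of the mouse spinal cord were followed across cell classes in a single-cell RNA-seq experiment. The 10 member genes were taken by their symbols, Fos, Fosb, Jun, Junb, Jund, Egr1, Atf3, Ier2, Nr4a1 and Dusp1, out of the 32285 genes listed in the files, and each symbol matched 1 gene. They were read as a set that is known to respond when tissue is taken apart into cells. Whole spinal cords of FVB mice at postnatal day 4 had been used, with 1 library labelled SMA (mSmn-/-, hSMN22tg/0) and 1 labelled Con (mSmn+/-, hSMN22tg/0). Spinal muscular atrophy (SMA) follows from too little SMN protein, and mice of both libraries carry the human SMN2 transgene of the Taiwanese model and lack at least 1 intact allele of mouse Smn1. According to the study's methods, littermates were pooled into each library, so that a library holds no separate animals and the groups have no replicates. Both suspensions were made by the same steps, a digestion in 0.25% trypsin at 28 °C that lasted 30 min and then collagenase II at 1 mg/mL, which was left on for 20 min.

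Immediate early genes are transcribed within minutes of a stimulus from factors already in the cell, without new protein being made first. MAP kinases, calcium signals and stress kinases reach their promoters through serum response factor with its partners and through CREB-family factors, and most of their products are transcription factors that act on later genes. The FOS and JUN proteins pair as AP-1, and DUSP1 is a phosphatase that switches MAP kinases off again. In the nervous system they are used as marks of recent neuronal firing, and in dissociated tissue they are also known to be switched on by warm enzymatic digestion, strongly so in microglia.

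Promoters of 8 of the 10 members were listed in RefSeq for GRCm38.p6, and that of Jund lies upstream of the start of Jund in the gene annotation used below, so that it is a window away from that start. Those of the 4 members whose level was at least 2-fold higher in oligodendrocyte precursor cells of the library labelled SMA are printed below with that of Dusp1, the only member that was lower there, and this choice was made after their values were seen. Each run holds 250 bases before and 50 bases after the RefSeq start, 5′ to 3′ on the strand of the gene. Capitals mark TGACG on either strand, which is one side of the cAMP response element TGACGTCA and is contained in it, and TATAAA on either strand. The windows are Fos chr12:85473640-85473939 (plus strand), Fosb chr7:19309996-19310295 (minus strand), Junb chr8:84978699-84978998 (minus strand), Nr4a1 chr15:101266596-101266895 (plus strand), Dusp1 chr17:26508423-26508722 (minus strand).
Fos: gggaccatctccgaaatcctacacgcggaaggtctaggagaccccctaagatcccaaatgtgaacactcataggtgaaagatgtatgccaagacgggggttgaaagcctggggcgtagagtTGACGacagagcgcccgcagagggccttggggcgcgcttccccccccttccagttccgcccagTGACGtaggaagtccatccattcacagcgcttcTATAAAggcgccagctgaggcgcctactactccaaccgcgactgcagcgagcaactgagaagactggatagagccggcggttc
Fosb: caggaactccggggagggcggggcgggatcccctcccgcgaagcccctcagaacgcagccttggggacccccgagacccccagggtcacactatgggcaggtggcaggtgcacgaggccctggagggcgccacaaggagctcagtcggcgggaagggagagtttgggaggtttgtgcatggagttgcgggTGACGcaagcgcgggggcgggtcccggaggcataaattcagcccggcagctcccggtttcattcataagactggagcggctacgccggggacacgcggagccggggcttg
Junb: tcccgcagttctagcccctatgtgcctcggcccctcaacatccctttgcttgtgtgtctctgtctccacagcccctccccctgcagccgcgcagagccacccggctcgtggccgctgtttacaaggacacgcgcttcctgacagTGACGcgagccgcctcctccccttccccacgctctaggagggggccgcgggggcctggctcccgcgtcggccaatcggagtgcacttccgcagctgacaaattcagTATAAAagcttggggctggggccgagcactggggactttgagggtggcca
Nr4a1: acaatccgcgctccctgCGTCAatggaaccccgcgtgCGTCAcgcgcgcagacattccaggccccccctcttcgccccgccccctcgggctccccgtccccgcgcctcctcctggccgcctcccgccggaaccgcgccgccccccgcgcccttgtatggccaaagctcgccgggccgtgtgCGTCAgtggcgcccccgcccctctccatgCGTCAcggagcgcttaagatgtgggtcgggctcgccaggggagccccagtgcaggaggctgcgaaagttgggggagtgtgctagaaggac
Dusp1: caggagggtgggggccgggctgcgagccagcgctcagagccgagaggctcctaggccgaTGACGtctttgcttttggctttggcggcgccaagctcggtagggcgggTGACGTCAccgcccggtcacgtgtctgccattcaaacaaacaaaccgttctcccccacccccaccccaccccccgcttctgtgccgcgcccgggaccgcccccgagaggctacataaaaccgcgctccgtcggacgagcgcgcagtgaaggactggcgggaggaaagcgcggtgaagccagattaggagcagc

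TGACG on either strand was found in 6 of the 8 promoters (Fos, Fosb, Junb, Atf3, Nr4a1 and Dusp1), and in 20.8% of all 32851 promoters of this length. Nr4a1 held 4 copies. The full element TGACGTCA was found only in Dusp1 among these 8, and in 1.79% of all promoters. TATAAA was found in Fos and Junb and in 13.6% of all promoters. The AP-1 site TGACTCA, which holds neither of them, was in none of the 8 and in 5.2% of all, and the CArG box was in none of the 8 and in 1.63% of all. These are exact matches of letters inside the windows, with the CArG box taken as CC, 6 of A or T, and GG. Sites farther upstream or with a letter changed were not searched for. Egr1 and Ier2 had no promoter among those listed.

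By the annotation GENCODE M21 of GRCm38, the members are protein-coding genes on 8 chromosomes. Fos (ENSMUSG00000021250) spans 85473890 to 85477273 on chromosome 12, plus strand. Jun, Jund and Ier2 have a single exon. Jun and Jund each overlap an antisense gene, Junb overlaps Prdx2 on the opposite strand, and Dusp1 overlaps Ergic1 on the opposite strand and pseudogenes. Reads were counted at the 3′ ends of transcripts, so that 1 molecule gives 1 unique molecular identifier (UMI) whatever the length of its gene. Levels are given as CPM, that is, UMIs of a gene scaled to 1000000 UMIs of the same class and library, and were not divided by length.

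In all, 85872075 UMIs in 26921 barcodes were labelled SMA and 97894084 UMIs in 25419 barcodes were labelled Con. A total of 8163 barcodes were listed in both, and their copies labelled SMA were left out before clustering. After the limits on genes and mitochondrial share, and after a cluster of 1340 barcodes with a high ribosomal share, all labelled Con, was left out, 6787 cells labelled SMA (median 6109 UMIs) and 8916 labelled Con (median 6232 UMIs) were kept. Smn1, the targeted gene, had levels of 48.1 CPM (SMA) and 43.8 CPM (Con), so that its level did not check the labels, and the libraries are named by their labels. Cells were grouped without the member genes and named from marker genes as "-like" classes, of which 10 had at least 50 cells in each library. Since the groups have 1 library each, no test was possible, and the 95% intervals in brackets cover counting error only.

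Among pairs whose Con copy held at least 5000 UMIs, the copies labelled SMA of shared barcodes had the levels of their Con copies. For 435 pairs of copies in the class of oligodendrocyte precursor cells (OPC-like), the members summed to 2222 CPM in the copies labelled SMA and 2183 CPM in the copies labelled Con. In the class of committed oligodendrocyte precursors (COP-like), 522 pairs gave 986.9 and 993.7 CPM. Over 14 classes the log2 ratio between the copies lay between -0.16 and 0.07, and within 0.1 of 0 in 13 of them. The barcodes found only in the library labelled SMA were at 3773 CPM in OPC-like cells and 1775 CPM in COP-like cells under the same clustering. Leaving the shared copies out therefore changed the levels of that library, and the values that follow are without them.

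All 10 members were detected in both libraries, and their summed level differed widely between classes. Among the 10 compared classes microglia-like cells were highest, with 13705 CPM (13623 to 13787) labelled SMA and 15742 CPM (15646 to 15839) labelled Con, which is 1.37% and 1.57% of all their UMIs. Ependymal-like cells, which line the central canal, followed at 13160 CPM labelled SMA and 11234 CPM labelled Con. Astrocyte-like cells came after them, at 12016 and 10927 CPM. All neighbours among these 3 classes were apart in their counting intervals in both libraries. In the library labelled SMA, however, ependymal-like cells were above microglia-like cells at resolution 0.5, with the libraries clustered separately, with the listed genes kept in the clustering and at a mitochondrial limit of 20%, so that the order of these classes was not firm there.

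Cells of the vessel wall and of nerve roots lay in the middle of the order. Mural-like cells were at 8509 CPM labelled SMA and 6596 CPM labelled Con, Schwann-like cells at 6185 and 5343 CPM, and endothelial-like cells at 4922 and 3672 CPM. The oligodendrocyte lineage was at the low end in both libraries. OPC-like cells were at 3787 CPM labelled SMA and 2416 CPM labelled Con, oligodendrocyte-like cells at 2256 and 1615 CPM, and COP-like cells at 1852 and 1001 CPM. Fibroblast-like cells changed place, with 2971 CPM labelled SMA, below OPC-like cells, and 6960 CPM labelled Con, above mural-like cells.

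Erythroid-like cells were lowest. They held 78.4 CPM (69.4 to 88.2) labelled SMA and 103.3 CPM (96.5 to 110.5) labelled Con. Erythroid markers made up 89.9% and 90.1% of their UMIs, which lowers the CPM of every other gene, and with those UMIs left out of the totals the members were at 780.4 and 1047 CPM, the latter close to the level of COP-like cells labelled Con. As UMIs per cell, which the haemoglobin genes do not scale, erythroid-like cells held 0.73 and 0.95 of the summed members, against 14.1 and 8.17 in COP-like cells. Under the clustering with shared barcodes kept they were at 321.7 CPM (barcodes found only in the library labelled SMA) and 430.7 CPM (Con), so that their level also depends on which cells are in the class. With shared copies left out and all UMIs in the totals, Jund was the most abundant member of erythroid-like cells, at 29.5 and 37.9 CPM, and Fos was at 10.8 and 21.4 CPM. Of the classes with under 50 cells in a library, macrophage-like cells (38 labelled SMA and 66 labelled Con) were at 11813 and 15110 CPM, close to microglia-like cells. Neuron-like cells (44 and 26) were at 2957 and 2413 CPM.

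**Figure D1:**
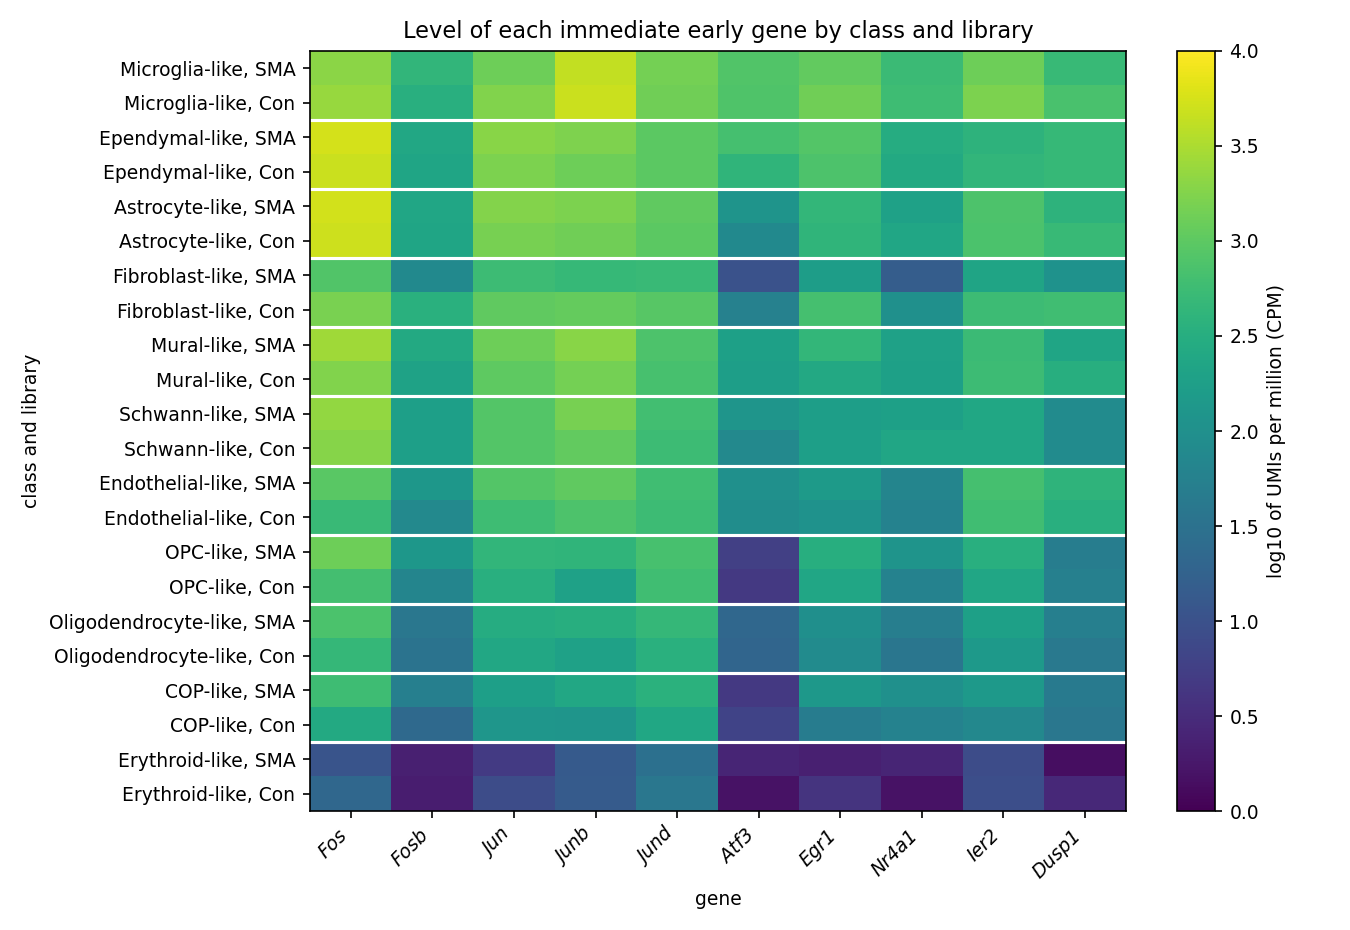
Level of each of the 10 genes (columns) in each class and library (rows), as the log10 of CPM. Fos is brightest in ependymal-like and astrocyte-like cells and Junb in microglia-like cells, while Atf3 is dark in OPC-like and COP-like cells and all genes are dark in erythroid-like cells.

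The FOS side of AP-1 was led by Fos in every class but was highest outside the immune cells. Fos was at 5367 CPM in astrocyte-like cells labelled SMA and 4887 CPM in those labelled Con, and made up 44.7% of the members' UMIs in each. In ependymal-like cells it was at 5615 and 4732 CPM. Microglia-like cells had 2000 and 2424 CPM, or 14.6% and 15.4% of their summed members. Fosb, its close relative, was far lower and reached its highest level among the compared classes in microglia-like cells labelled SMA, at 436.8 CPM against 330.8 CPM labelled Con. Among the compared classes labelled Con, fibroblast-like cells were highest in Fosb, at 350.4 CPM, with an interval that overlapped that of microglia-like cells.

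Among the JUN partners, Junb was the leading gene of microglia-like cells, at 4260 CPM (4215 to 4306) labelled SMA and 4835 CPM (4781 to 4888) labelled Con, or 31.1% and 30.7% of the summed members. Astrocyte-like cells held 1627 and 1381 CPM of Junb. Among the compared classes Jun was highest in ependymal-like cells labelled SMA (1955 CPM) and in microglia-like cells labelled Con (1731 CPM), the latter within counting error of ependymal-like cells (1653 CPM). Jund, which in many tissues is expressed without a stimulus, lay between 240.2 and 1467 CPM over the compared classes. It was at 694.8 CPM in OPC-like cells labelled SMA and 592.0 CPM in those labelled Con, and took 24.5% of the summed members in OPC-like cells labelled Con but 8.66% in microglia-like cells labelled Con.

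Atf3, a stress-induced factor of the ATF and CREB family, had the widest spread of the 10 between the compared classes. It was at 811.2 CPM in microglia-like cells labelled SMA and 777.8 CPM in those labelled Con, and at 665.5 and 414.3 CPM in ependymal-like cells. OPC-like cells had 5.76 CPM (66 UMIs) and 4.55 CPM (46 UMIs), or 0.0337 and 0.0276 UMIs per cell, against 0.0238 and 0.0146 UMIs per cell in erythroid-like cells. Astrocyte-like cells, at 118.0 and 79.2 CPM, lay between. Atf3 in OPC-like cells was therefore close, per cell, to its level in erythroid-like cells, while Fos was at 1296 and 637.2 CPM there.

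The other members code for a zinc finger factor (Egr1), an orphan nuclear receptor (Nr4a1), a small nuclear protein (Ier2) and the phosphatase. Among the compared classes Egr1 was highest in microglia-like cells, with 1106 CPM labelled SMA and 1336 CPM labelled Con, and next in ependymal-like cells with 840.8 and 764.1 CPM. Nr4a1 was at 528.6 and 580.7 CPM in microglia-like cells and at 117.2 (SMA) and 58.5 CPM (Con) for OPC-like cells. Ier2 was at 1308 and 1645 CPM in microglia-like cells, and in endothelial-like cells it took 13.6% and 16.4% of the summed members, the highest share among the compared classes. Dusp1 was at 496.2 and 720.3 CPM in microglia-like cells and far lower in OPC-like cells, with 49.0 and 55.7 CPM.

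**Figure D2:**
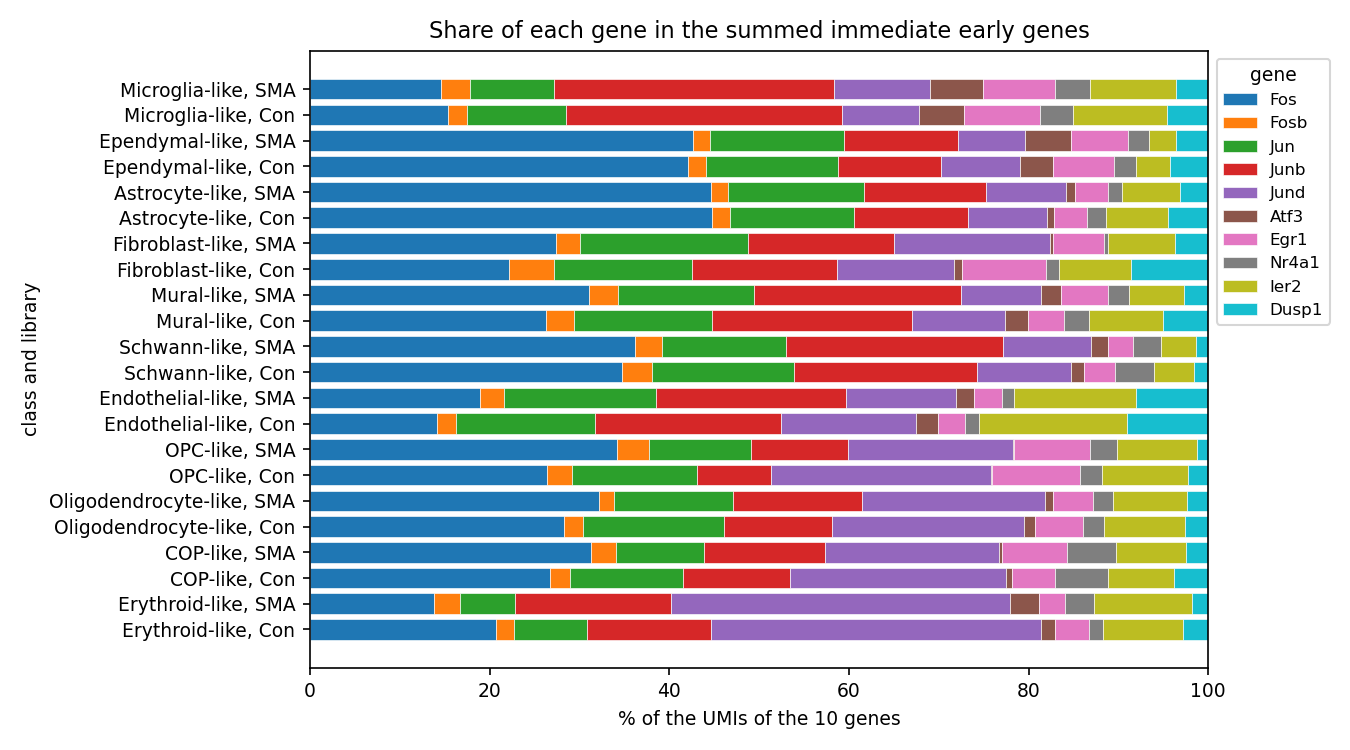
Share of each gene in the UMIs of the 10 genes (horizontal axis, %), for each class and library (rows). Fos takes 44.7% in astrocyte-like cells of both libraries, Junb about 31% in microglia-like cells, and Jund is a larger part in OPC-like, COP-like and erythroid-like cells.

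Between the libraries, the summed members of all named cells outside the erythroid class were at 8326 CPM labelled SMA and 7181 CPM labelled Con, a log2 ratio of 0.21 (0.21 to 0.22). Of the 10 members 9 were higher in the library labelled SMA, beside 56.3% of the 14301 genes with at least 100 UMIs. Their median log2 ratio was 0.23, and that of all genes was 0.04. Atf3 had the highest ratio (0.54) and Dusp1 was the only member below 0 (-0.37), at 277.2 CPM labelled SMA and 358.6 CPM labelled Con. None was 2-fold apart in the pooled cells, where 1.91% of genes were at least 2-fold higher and 2.64% at least 2-fold lower. Pooled values also move with the number of cells in each class, which differed between the libraries.

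Class by class, the summed level was higher in the library labelled SMA in 8 of 10 classes, and the median over classes was 0.30. That median was 0.15 with shared barcodes kept and 0.19 with the libraries clustered separately. Of the 8 classes, oligodendrocyte-like cells turned to -0.47 with separate clustering and Schwann-like cells to -0.031 with each cell weighted equally. COP-like and OPC-like cells had the highest ratios, 0.89 (0.82 to 0.95) and 0.65 (0.63 to 0.67). Oligodendrocyte-like cells (0.48), endothelial-like cells (0.42) and mural-like cells (0.37) were next. Ependymal-like (0.23), Schwann-like (0.21) and astrocyte-like cells (0.14) were nearer to 0, and the last was at 0.070 with shared barcodes kept. Microglia-like cells (-0.20, interval -0.21 to -0.19) and fibroblast-like cells (-1.23, interval -1.30 to -1.16) were lower. The ratio of microglia-like cells was -0.12 with shared barcodes kept and -0.33 with separate clustering, so that it moved by more than its counting interval.

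**Figure D3:**
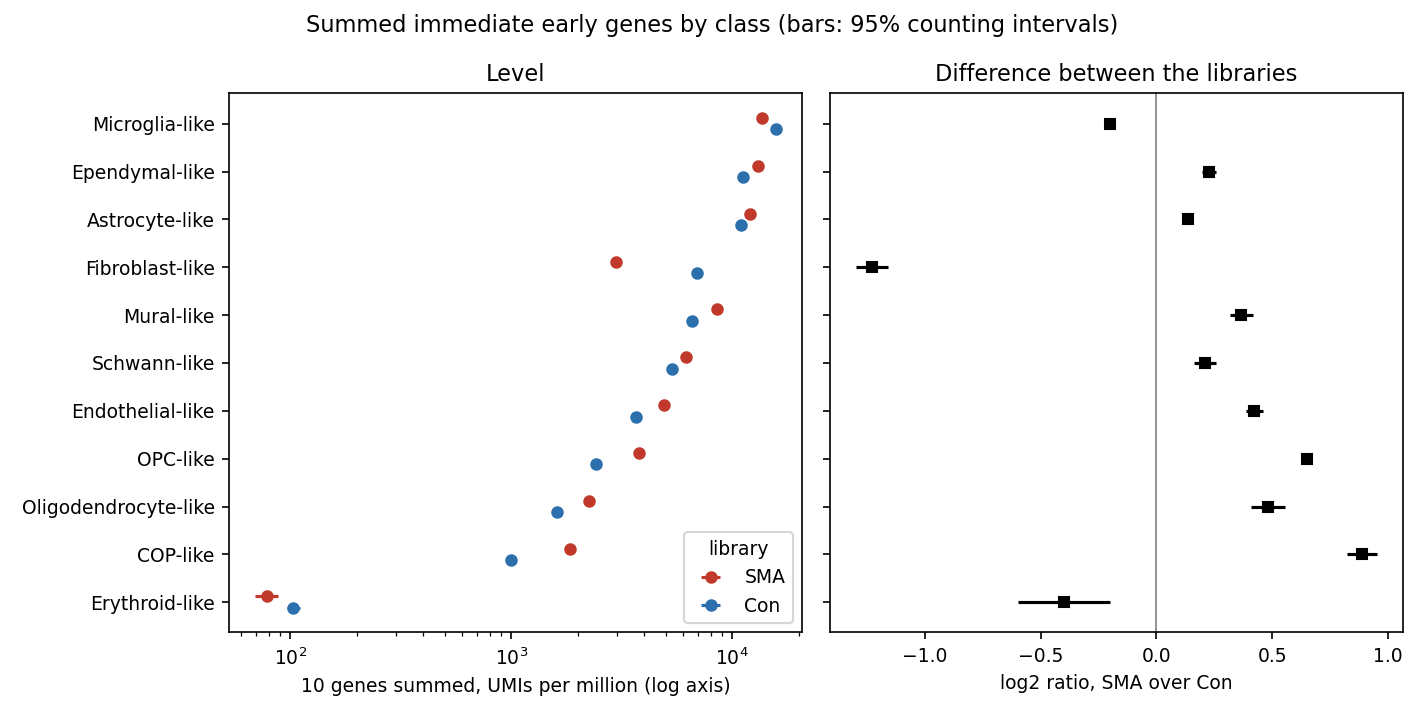
Left, the 10 genes summed, as CPM on a log axis, for each class in the libraries labelled SMA (red) and Con (blue). Right, the log2 ratio of SMA over Con, with bars for 95% counting intervals that are mostly smaller than the symbols. COP-like and OPC-like cells lie farthest to the right (0.89 and 0.65) and fibroblast-like cells farthest to the left (-1.23).

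In OPC-like cells (1957 labelled SMA and 1668 labelled Con), 9 of 10 members were higher in the library labelled SMA, where 48.0% of the 10829 genes that reached 100 UMIs were. Fos, Fosb, Junb and Nr4a1, 4 of the 10, were at least 2-fold higher, where 0.369% of genes were. Fos was at 1296 CPM (1275 to 1317) labelled SMA and 637.2 CPM (621.8 to 653.0) labelled Con, a log2 ratio of 1.02. Junb was at 410.5 and 197.8 CPM (1.05), Fosb at 133.1 and 66.2 CPM (1.01), and Nr4a1 at 117.2 and 58.5 CPM (1.00, interval 0.86 to 1.15). These are the genes whose promoters are printed above.

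Smaller differences in OPC-like cells were those of Ier2 (0.53), Egr1 (0.43), Jun (0.34) and Jund (0.23). Atf3 rested on few UMIs, and its interval (-0.23 to 0.92) took in 0. Dusp1 was lower, at 49.0 CPM labelled SMA and 55.7 CPM labelled Con (-0.18, interval -0.36 to -0.01). The median of all genes in this class was -0.01.

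The OPC-like class was made of 5 clusters, and the summed members were higher in the library labelled SMA in each. The cluster with most cells (1152 labelled SMA and 904 labelled Con) had a ratio of 0.62, and 3 clusters led by cell-cycle genes had 0.64, 0.74 and 0.63. The fifth, with 69 and 47 cells, had 0.50. Within ranges of depth the order was the same. Between 3000 and 6000 UMIs the summed level was 4021 CPM labelled SMA and 2639 CPM labelled Con, and between 6000 and 12000 UMIs it was 3615 and 2305 CPM. Cells with a mitochondrial share of 8 to 10% had 3767 and 2319 CPM, and those of 4 to 6% had 3810 and 2571 CPM.

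In COP-like cells (253 labelled SMA and 561 labelled Con), 9 of 10 members, all but Atf3, were higher in the library labelled SMA, where 55.0% of 6938 genes were. Egr1 had the highest ratio of any member in any of the 10 classes, at 134.7 CPM (118.8 to 152.1) labelled SMA and 48.0 CPM (41.9 to 54.8) labelled Con, a log2 ratio of 1.49. Fosb (1.18), Fos (1.12) and Junb (1.06) were also at least 2-fold higher, where 0.418% of genes were. Fos stood at 578.6 and 267.1 CPM, or 4.40 and 2.18 UMIs per cell, against 0.101 and 0.197 UMIs per cell in erythroid-like cells. With erythroid markers left out of the totals Fos was at 107.4 and 217.3 CPM in the latter, so that by this scale the level labelled Con was near theirs. Ier2 (0.97) and Nr4a1 (0.77) came next, Jund (0.58) and Jun (0.54) after them. Dusp1 (0.24, interval -0.14 to 0.62) and Atf3, with 9 and 29 UMIs, could not be told from 0 at this depth.

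The class is 1 cluster, led by Bmp4, Neu4 and Gpr17. Its summed members were lower in cells of greater depth in both libraries, and the library labelled SMA was higher at each depth with at least 20 cells in both. Cells of 3000 to 6000 UMIs had 2912 CPM labelled SMA and 1536 CPM labelled Con, and cells of 6000 to 12000 UMIs had 1704 and 995.9 CPM.

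Markers of other cell types were looked at in the same cells. In OPC-like cells the 10 astrocyte markers summed to 732.4 CPM labelled SMA and 657.5 CPM labelled Con, with 5 higher and 5 lower, and the 10 microglia markers to 628.5 and 630.3 CPM, also with 5 higher and 5 lower. In COP-like cells the astrocyte markers summed to 370.2 and 329.8 CPM (5 higher, 5 lower), and the microglia markers to 641.0 and 474.5 CPM (9 higher, 1 lower). None of these 20 markers was at 0. Oligodendrocyte markers were lower in the library labelled SMA, 10 of 10 in each class, at 1097 against 1737 CPM in OPC-like and 7632 against 10944 CPM in COP-like cells, with Opalin at 0 in a library in the latter. Schwann markers were at 600.8 and 741.7 CPM in OPC-like cells (2 higher, 7 lower), and at 2212 and 2949 CPM in COP-like cells (2 higher, 8 lower). The part of these differences in the results was not tested.

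Erythroid markers, haemoglobin genes among them, had a lower sum in the library labelled SMA in all 10 classes. The 9 of them summed to 7644 CPM labelled SMA and 15465 CPM labelled Con in OPC-like cells (3 higher, 6 lower), and to 1603 and 3156 CPM in COP-like cells (1 higher, 6 lower), where Slc4a1 and Hemgn were among those at 0 in a library. With the UMIs of these markers left out of the totals, a setting chosen after seeing the data, the ratio of the summed members was 0.64 in OPC-like cells and 0.89 in COP-like cells.

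**Figure D4:**
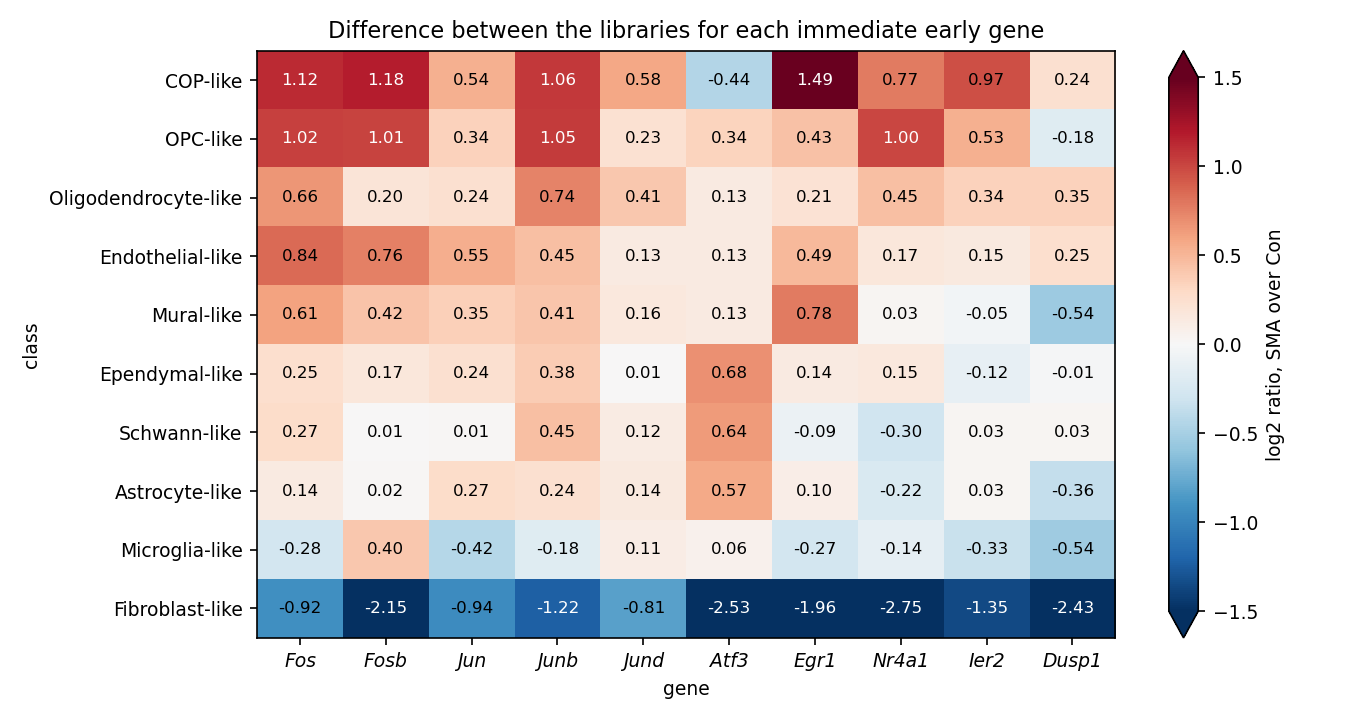
Log2 ratio of SMA over Con for each gene (columns) in the 10 classes (rows, by the ratio of the summed genes), with the value in each field; red is higher and blue is lower in the library labelled SMA. Fos, Fosb and Junb are above 1 in COP-like and OPC-like cells, most genes are below 0 in microglia-like cells, and all 10 are below 0 in fibroblast-like cells; Atf3 has under 100 UMIs in COP-like and oligodendrocyte-like cells.

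Oligodendrocyte-like cells (236 labelled SMA and 538 labelled Con) had all 10 members above 0, but the intervals of 5 of them (Fosb, Egr1, Atf3, Nr4a1 and Dusp1) took in 0. Of the 9 with at least 100 UMIs, all but Atf3, 9 were higher, where 68.9% of 3499 genes were. In cells of at least 3000 UMIs Fosb was at -0.14 and Egr1 at -0.17. Junb (324.8 and 193.8 CPM, 0.74) and Fos (725.2 and 457.4 CPM, 0.66) had the highest ratios. The median of all genes was 0.17 in this class, and the sum was 0.31 above Con once it was centred on that median. Erythroid markers stood at 169884 CPM labelled SMA and 279025 CPM labelled Con in these cells (1 higher, 8 lower), and with their UMIs left out of the totals the ratio of the sum was 0.28. Oligodendrocyte markers summed to 43628 and 27628 CPM, with 10 of 10 higher in the library labelled SMA, and their part was not tested. When the libraries were clustered separately the ratio was -0.47. Median depth also differed, with 2610 UMIs labelled SMA and 1762 labelled Con.

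In endothelial-like cells all 10 members were higher in the library labelled SMA, where 50.7% of 6119 genes were. Fos was at 932.2 CPM (894.4 to 971.2) labelled SMA and 519.1 CPM (495.7 to 543.2) labelled Con (0.84). Fosb (0.76), Jun (0.55), Egr1 (0.49) and Junb (0.45) followed, and the intervals of Atf3 and Nr4a1 took in 0. The difference was not the same in all endothelial-like cells. At a mitochondrial share under 4% the sum was 7704 CPM labelled SMA (35 cells) and 2995 CPM labelled Con (40 cells), and at 4 to 6% it was 5142 and 3943 CPM. At 6 to 8% the levels were 3710 and 3467 CPM, and at 8 to 10% the order was reversed, with 3658 CPM labelled SMA and 4075 CPM labelled Con. Erythroid markers were at 11952 and 35401 CPM (0 higher, 8 lower), and with their UMIs left out the ratio was 0.39. Oligodendrocyte markers were at 607.3 and 1046 CPM (1 higher, 9 lower) and ependymal markers at 39.5 and 26.0 CPM (9 higher, 1 lower), and their part was not tested.

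Mural-like cells had 8 of 10 higher, beside 47.0% of 3412 genes. Egr1 was at 449.2 and 261.2 CPM (0.78) and Fos at 2645 and 1736 CPM (0.61), while Dusp1 was at 225.5 and 327.8 CPM (-0.54). Astrocyte markers summed to 1012 and 662.9 CPM in mural-like cells (8 higher, 2 lower) and microglia markers to 3768 and 3401 CPM (9 higher, 1 lower). Oligodendrocyte markers summed to 1014 and 2183 CPM and endothelial markers to 395.1 and 573.4 CPM, each with 1 higher and 9 lower. The microglia list includes Sparc, and its sum is not read as microglial RNA alone. The part of these markers was not tested.

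Astrocyte-like cells differed less. Of the members 8 of 10 were higher in the library labelled SMA, beside 43.4% of 10225 genes. Atf3 had the highest ratio (0.57), followed by Jun (1821 and 1506 CPM, 0.27) and Junb (0.24). Fos differed by 0.14, and Fosb by 0.02 (-0.07 to 0.10). Nr4a1 (-0.22) and Dusp1 (380.2 and 488.2 CPM, -0.36) were lower. The 5 clusters of the class did not go one way. The sum was lower in the library labelled SMA in 1 cluster of 91 and 150 cells (-0.13, interval -0.20 to -0.063), with Draxin and Dll1 among its leading genes. It was 0.07 in the cluster with most cells (845 and 956), 0.06 in a cluster led by cell-cycle genes, 0.27 in a cluster with Gfap among its leading genes, and 0.70 in the smallest (53 and 53). Erythroid markers were at 7422 CPM labelled SMA and 30040 CPM labelled Con (0 higher, 8 lower), and with their UMIs left out the ratio of the sum was 0.10. Oligodendrocyte markers were at 840.3 and 1170 CPM (1 higher, 9 lower), and their part was not tested.

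In ependymal-like cells 8 of 10 members were higher, beside 43.5% of 4860 genes, and Atf3 also had the highest ratio (0.68), and Junb (0.38), Fos (0.25) and Jun (0.24) followed. Astrocyte markers summed to 1959 and 1608 CPM there (9 higher, 1 lower), OPC markers to 488.9 and 627.6 CPM (1 higher, 9 lower) and endothelial markers to 40.2 and 150.7 CPM (0 higher, 10 lower). Their part was not tested.

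Schwann-like cells had 8 of 10 members higher beside 52.4% of 3502 genes, but the ratios were small apart from Atf3 (0.64) and Junb (0.45). Their median was 0.03, against 0.02 for all genes. The sum was 0.21 by pooled UMIs and -0.03 when each cell was weighted equally, so that its direction was not stable. Erythroid markers were at 509.0 CPM labelled SMA and 17963 CPM labelled Con, and with their UMIs left out the ratio was 0.19. Astrocyte markers were at 522.7 and 349.3 CPM (7 higher, 3 lower) and ependymal markers at 182.9 and 124.6 CPM (7 higher, 2 lower). Endothelial markers were at 51.13 and 96.45 CPM (2 higher, 8 lower), and the part of these markers was not tested.

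Microglia-like cells were the reverse. Of the members 7 of 10 were lower in the library labelled SMA, where 42.4% of 8530 genes were lower. Dusp1 had the lowest ratio (-0.54), followed by Jun (1292 and 1731 CPM, -0.42), Ier2 (-0.33), Fos (-0.28) and Egr1 (-0.27). Junb, the most abundant, was lower by less (-0.18). Fosb was higher (0.40, interval 0.32 to 0.48), and Jund (0.11) and Atf3 (0.06) were slightly higher. The class was made of 3 clusters, with ratios of -0.19, -0.17 and -0.18. At 3000 to 6000 UMIs the summed level was 17569 CPM labelled SMA and 23479 CPM labelled Con, and at over 12000 UMIs it was 9829 and 10187 CPM. Erythroid markers were at 18727 and 28628 CPM, and with their UMIs left out the ratio was -0.21. Oligodendrocyte markers were at 747.9 and 1033 CPM (2 higher, 8 lower) and Schwann markers at 209.8 and 281.3 CPM (1 higher, 8 lower). Ependymal markers were at 51.3 and 38.5 CPM (9 higher, 1 lower), and the part of these markers was not tested.

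Fibroblast-like cells had all 10 members lower in the library labelled SMA, where 50.9% of 4072 genes were lower, and 7 members at least 2-fold lower, where 12.6% of genes were. Nr4a1 (9 and 283 UMIs, -2.75) and Dusp1 (110.5 and 595.5 CPM, -2.43) were among the lowest. The 64 cells labelled SMA and the 600 labelled Con came mostly from different clusters. One cluster, led by Mfap5, Pi16 and Timp1, held 2 cells labelled SMA and 432 labelled Con, and the other, led by Slc6a13 and Mfap4, held 62 and 168. Within the second cluster the sum was 3024 and 5740 CPM (-0.92), with Fos at 832.3 and 1383 CPM. All 10 members were lower there too, but the share of all genes lower in this cluster was not counted. Erythroid markers summed to 450.3 CPM labelled SMA and 19738 CPM labelled Con in the class, and the median depth was 8734 and 3481 UMIs. With the UMIs of erythroid markers left out the ratio of the sum was -1.26. Microglia markers summed to 6254 CPM labelled SMA and 14815 CPM labelled Con (1 higher, 9 lower), with Siglech and Gpr34 at 0 in a library. The microglia list includes Sparc and also summed to 5160 and 5169 CPM in endothelial-like cells, so its sum is not read as microglial RNA alone. Astrocyte markers summed to 1965 and 805.0 CPM in fibroblast-like cells (10 higher). The part of these markers and of depth was not tested.

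Cells were then counted by how many members they showed, after each had been thinned to 1000 UMIs. Over all named cells outside the erythroid class, UMIs of at least 3 members were held by 60.7% (59.4 to 61.9) of the 5901 labelled SMA, and by 52.0% (50.8 to 53.2) of the 7120 labelled Con. Before thinning these shares were 91.3% and 85.8%, and 27 and 252 shallower cells were left out by it. Erythroid-like cells had 1 such cell of 377 labelled SMA (0.265%) and 1 of 889 labelled Con (0.112%), but most of the UMIs left in them after thinning are those of erythroid markers, so that a low share is fixed by the scale. Before thinning, at median depths of 9617 and 9605 UMIs, their shares were 4.50% and 5.04%.

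The share in OPC-like cells was 48.0% (45.8 to 50.2) labelled SMA and 28.4% (26.3 to 30.7) labelled Con, and 7.92% and 14.5% of cells had none of the 10. COP-like cells had 20.2% (15.4 to 25.6) and 6.77% (4.84 to 9.18). These 2 classes differed in the same direction as their CPM, and so did fibroblast-like cells, with 29.7% (18.9 to 42.4) and 76.9% (73.2 to 80.3). Ependymal-like cells went against their CPM, with 72.1% (67.4 to 76.6) labelled SMA and 74.8% (67.2 to 81.5) labelled Con, and no order is read from these overlapping intervals. Astrocyte-like cells had 67.7% and 67.0%, with intervals that overlap. Microglia-like cells had 96.1% and 97.8%, and only 2 of 1062 and 3 of 864 of them lacked all members.

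Levels varied widely from cell to cell within a class. The summed members of a thinned astrocyte-like cell labelled SMA had a median of 10 UMIs, with 11.3% of cells at 0 and a highest cell of 71. In OPC-like cells the medians were 3 UMIs labelled SMA and 2 labelled Con, and 90% of cells had at most 8 and 5. The variance was 9.82 times the mean in astrocyte-like cells labelled SMA and 2.63 times in OPC-like cells labelled SMA. Pairs of members had higher correlations from cell to cell in the former. The mean of the summed members after thinning was also higher there, 12.1 UMIs against 3.89, and low counts alone lower a correlation. Fos and Junb had a Pearson r of 0.57 over 1358 astrocyte-like cells labelled SMA and of 0.49 over 1693 labelled Con, and of 0.65 over 384 ependymal-like cells labelled SMA, as a description over cells of 1 library. The median over the 45 pairs was 0.25 and 0.22 in astrocyte-like cells but 0.06 and 0.04 in OPC-like cells. In microglia-like cells, with means of 14.61 and 17.25 UMIs, it was 0.13 and 0.15.

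**Figure D5:**
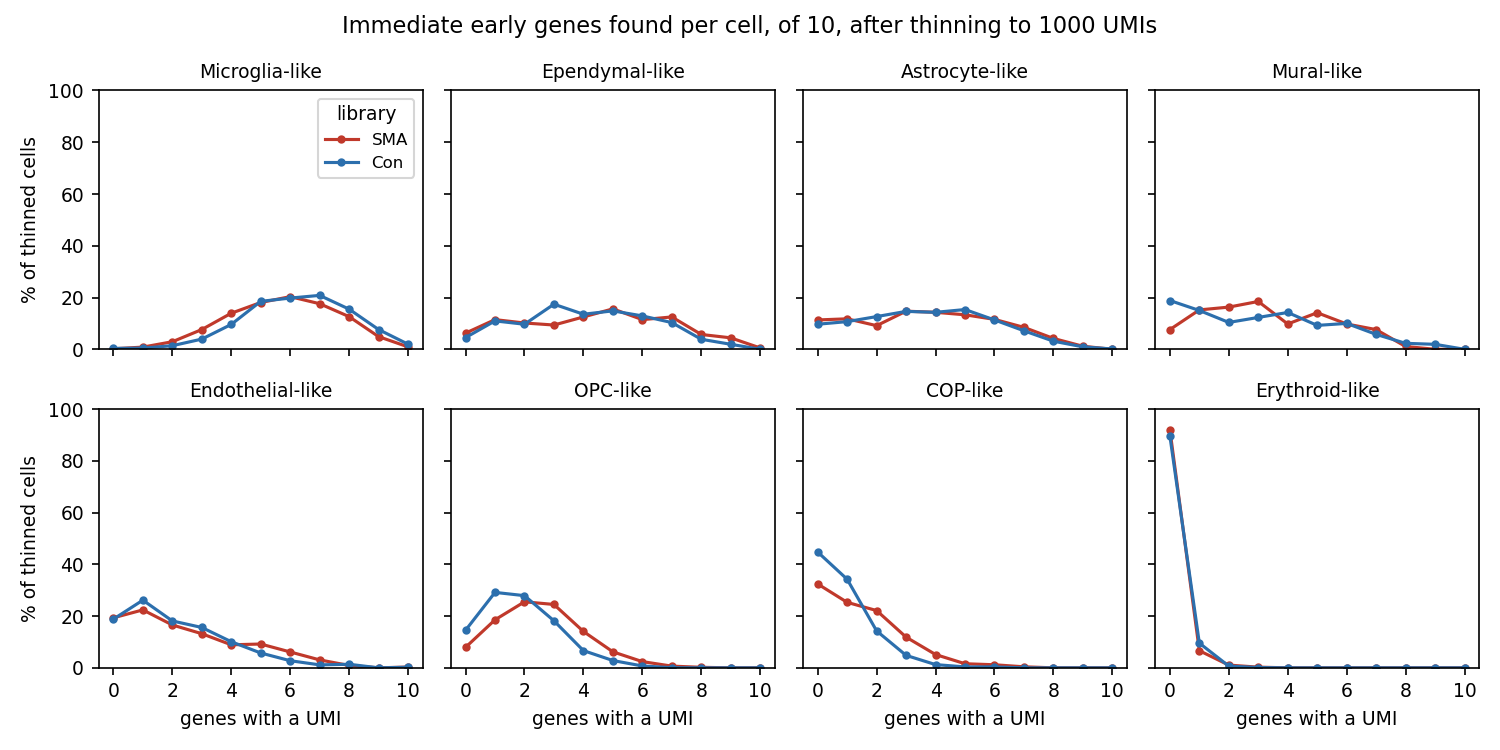
Percentage of cells (vertical axis) by the number of the 10 genes with a UMI (horizontal axis) after thinning to 1000 UMIs, in the libraries labelled SMA (red) and Con (blue). In OPC-like and COP-like cells the red line is shifted to more genes, in microglia-like cells the lines nearly coincide with blue slightly to the right, and nearly all erythroid-like cells have none.

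Barcodes that had been left out also held members. Those with a mitochondrial share of 10% or more were at 2307 CPM labelled SMA (11477 barcodes) and 2151 CPM labelled Con (14016 barcodes), below the 7598 and 5928 CPM of all kept cells. Barcodes with over 4000 genes were at 4667 and 4023 CPM. The high-ribosome cluster, 1340 barcodes of the library labelled Con, was at 5012 CPM.

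Genes around the members were read from 5 lists. Of 31 other immediate early genes, 29 had at least 100 UMIs in the pooled cells, 19 higher and 10 lower in the library labelled SMA, where 56.3% of all genes were higher, with a median of 0.12 against 0.04 for all genes. Btg2 (553.9 and 547.7 CPM), Rhob (467.9 and 477.4 CPM) and Ier3 (351.4 and 450.2 CPM) were the most abundant, and Egr4, a relative of Egr1, had the highest ratio (6.67 and 2.79 CPM, 1.26) and Ccn2 the lowest (-0.91). In OPC-like cells 17 of 24 were higher, beside 48.0% of all genes, and 5 at least 2-fold higher, beside 0.369%. Nr4a3, a relative of Nr4a1, led there (11.8 and 3.56 CPM, 1.73), while Rhob, the most abundant, was at 301.5 and 322.4 CPM (-0.10) and Klf10 was lowest (15.7 and 22.2 CPM, -0.50). In COP-like cells 8 of 11 were higher, beside 55.0% of all genes, with Maff, a small Maf factor, at 36.4 and 16.4 CPM (1.15). Rhob, the most abundant, was at 284.9 and 312.1 CPM there (-0.13, an interval that took in 0), Klf6 at 199.1 and 192.2 CPM (0.05), and Gadd45g was lowest, at 120.1 and 177.1 CPM (-0.56, interval -0.78 to -0.35). In fibroblast-like cells 19 of 19 were lower, where 50.9% of all genes were. Astrocyte-like cells did not follow their members, with 9 higher and 16 lower, where 43.4% of all genes were higher. In ependymal-like cells 11 were higher and 10 lower, where 43.5% of all genes were higher.

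Of the heat shock genes 3 of 12 were higher in the library labelled SMA and 9 lower in the pooled cells, where 56.3% of all genes were higher, with a median of -0.12. In OPC-like cells 3 of 8 were higher, beside 48.0% of all genes. In fibroblast-like cells 11 of 11 were lower, beside 50.9% of all genes, and 4 were at least 2-fold lower, beside 12.6%. In microglia-like cells 5 of 10 were lower, beside 42.4% of all genes. Their summed level was lower in the library labelled SMA in each of the 10 classes. Hspa8, a constitutive chaperone, was at 1091 CPM labelled SMA and 1419 CPM labelled Con (-0.38), Hsp90ab1 at 1573 and 1714 CPM (-0.12) and Hsp90aa1 at 473.3 and 495.9 CPM (-0.07). Hspe1 had the highest ratio (0.12), and the inducible Hspa1b the lowest, with 3.52 and 6.10 CPM (-0.80).

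Genes known to be switched on in isolated microglia were higher in 9 of 12 in microglia-like cells, and lower in 3, beside 42.4% of all genes that were lower, with a median of 0.23 against 0.05 for all genes. Ccl4 was at 5444 and 4522 CPM there (0.27) and Il1a at 849.0 and 510.7 CPM (0.73), while Ccl3 (2010 and 2226 CPM) and Nfkbia (1880 and 2083 CPM) were both at -0.15. In the same cells 7 of the 10 members were lower. In the pooled cells 10 of 12 were higher, beside 56.3% of all genes. The chemokine Ccl4 was at 1149 and 725.9 CPM (0.66), Cxcl2 at 444.9 and 379.5 CPM (0.23), Nfkbia at 577.9 and 579.0 CPM (0.00), Il1a at 177.6 and 76.0 CPM (1.23) and Ccl2 at 232.5 and 238.6 CPM (-0.04). These pooled values move with the share of microglia-like cells, of which there were 1062 labelled SMA and 864 labelled Con.

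MAP kinase feedback genes, most of which like Dusp1 dampen the signal, were higher in 9 of 11 in the pooled cells (median 0.28), beside 56.3% of all genes, and in 9 of 11 in OPC-like cells (median 0.20), beside 48.0%. Spry2, an inhibitor of receptor tyrosine kinase signalling, had 218.0 CPM labelled SMA and 140.5 CPM labelled Con in the latter (0.63), Spry1 at 121.5 and 105.5 CPM (0.20) and Dusp5 at 28.7 and 16.1 CPM (0.83), while Etv4, a transcription factor downstream of the signal, was at 81.1 and 114.0 CPM (-0.49). All 4 with at least 100 UMIs were higher in COP-like cells, beside 55.0% of all genes, with Spry2 at 69.2 and 32.3 CPM (1.10), but the intervals of Spred1 (0.19) and Spry1 (0.21) took in 0. Of the kinases and factors that act above the members, 11 of 15 were higher in OPC-like cells, beside 48.0% of all genes, with a median of 0.14. Crem had the highest ratio there (0.80), and Mapk14 the lowest (-0.53). Pooled, Mapk3 was at 80.2 and 103.8 CPM (-0.37) and Srf at 10.8 and 8.15 CPM (0.41).

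The 5 genes outside these lists with the levels most like the summed members were taken over 20 points, the 10 compared classes in 2 libraries. They were Gm26532 (Pearson r of log2 CPM 0.91), Adamts1 (0.90), Tifa (0.89), Hexim1 (0.88) and Pbxip1 (0.88). The members themselves had values between 0.81 (Nr4a1) and 0.98 (Jun) with the sum that contains them. Points of 1 library share its depth and preparation, so these are descriptions.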

How the data were processed

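Single-cell 3′ libraries (10x Genomics, version 3 chemistry) of whole spinal cord, 1 labelled SMA and 1 labelled Con, were analysed. The authors deposited raw UMI counts per gene and barcode, made with Cell Ranger on mm10. The file headers name version 4.0.0, and the submitters' processing notes name Seurat 3.2.2 for later steps.

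Groups were taken from the labels. Barcodes with 200 to 4000 genes and under 10% mitochondrial UMIs were kept, and SMA barcodes also listed in Con were left out. Doublets were treated by the upper gene limit. Counts were scaled to 10000 per cell, 2000 variable genes were reduced to 30 principal components, and a shared-neighbour graph (20 neighbours) was divided by the Louvain method (python-igraph 0.11.9) at resolution 1. A cluster with a median ribosomal share over 30% was left out. Members, listed genes, ribosomal and mitochondrial genes were kept out of clustering and naming. Clusters were named from at least 3 detected markers, and names rebuilt in this way may differ from the study's; 481 and 651 cells stayed unnamed. Pooled values are over all named cells outside the erythroid class.

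UMIs were summed per class and library and given as CPM with exact Poisson intervals, ratios with exact conditional binomial intervals, and shares of thinned cells with Clopper-Pearson intervals (scipy 1.17.1), all at 95%. UMI duplicates had been collapsed by the authors, and intervals cover counting error only. Ratios and thinning were tested on simulated counts without added spread between cells, so that such spread was not covered by that test. The members and lists were chosen with earlier results of these data known. Named were all members, and of each list up to 3 genes of highest UMIs and those of highest and lowest ratio among genes with at least 100 UMIs; genes named within a class come from those the same rule gives there, and not all of these are printed. A listed gene that this rule names is not reported here. The 5 genes most like the sum outside the lists were also named. Counts past 2-fold and directions are set beside all genes with at least 100 UMIs in the class. Alternatives were the shared barcodes kept, a mitochondrial limit of 20%, cells of at least 3000 UMIs, cells weighted equally, centring on the median gene, resolutions 0.5 and 2, separate clustering, listed genes kept in the clustering, the high-ribosome cluster kept and thinning to 2000 UMIs. Promoter sequences were copied from RefSeq (GRCm38.p6).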

Additional observations from a re-analysis of the deposited data

Results flagged for a closer look

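The summed members moved in opposite directions between the libraries in different classes, and these differences between classes were not tested, since each group is 1 library. The log2 ratio of SMA over Con was above 0 in COP-like (0.89), OPC-like (0.65), oligodendrocyte-like (0.48), endothelial-like (0.42), mural-like (0.37), ependymal-like (0.23), Schwann-like (0.21) and astrocyte-like cells (0.14). It was below 0 in microglia-like (-0.20) and fibroblast-like cells (-1.23). The study's methods give 1 digestion protocol, and whether its course differed between the libraries cannot be told apart from the genotype.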

How the results depend on the processing

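No paired analysis was possible because each group is 1 library. In the pooled cells the log2 ratio of the summed members (0.21) was 0.18 with shared barcodes kept, 0.21 in cells of at least 3000 UMIs, 0.20 with each cell weighted equally, 0.17 centred on the median gene, 0.22 with the libraries clustered separately and 0.20 with the listed genes kept in the clustering. In alternatives chosen after seeing the data it was 0.18 without Fos, 0.23 over the 10 compared classes alone and 0.19 with the UMIs of erythroid markers left out of the totals. The median over classes (0.30) was 0.15 with shared barcodes kept, 0.22 at resolution 0.5, 0.19 with separate clustering, 0.24 without Fos and 0.25 without the erythroid markers. The share of thinned cells with at least 3 members (60.7% labelled SMA and 52.0% labelled Con) was 55.8% and 49.7% with shared barcodes kept, 44.2% and 37.6% at a mitochondrial limit of 20%, and 78.3% and 69.8% when thinned to 2000 UMIs; the share labelled Con was 53.2% in cells of at least 3000 UMIs and 50.7% at resolution 0.5. Microglia-like cells, highest in both libraries, were at rank 2 in both with shared barcodes kept, below macrophage-like cells. At the mitochondrial limit of 20% they were at rank 3 in the library labelled SMA and rank 2 in that labelled Con. In the library labelled SMA they were at rank 2, below ependymal-like cells, at resolution 0.5, with separate clustering and with the listed genes kept in the clustering. The direction was reversed for oligodendrocyte-like cells with separate clustering (-0.47) and for Schwann-like cells with each cell weighted equally (-0.031); the cause was not tested. Fibroblast-like cells ranged from -1.43 to -0.86, the value within their shared cluster (-0.92) being an alternative chosen after seeing the data. OPC-like cells ranged from 0.55 to 0.66, COP-like cells from 0.72 to 0.98 and microglia-like cells from -0.33 to -0.12 over 11 alternatives, and each of the 10 members kept its pooled direction in each of them. The 1 library per group limits what depth could add, and Atf3 was near the counting limit in the oligodendrocyte lineage.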
